A study of Homo sapiens with 11 samples.

Results

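The proteasome subunit genes were taken as every row of the count tables whose symbol is PSMA, PSMB, PSMC, PSMD or PSME followed by a number alone. This rule gave 43 genes of the 26485 rows, chosen by name and not by any measured value. They comprised 15 core genes (PSMA, and PSMB1 to PSMB7), 3 immunoproteasome genes (PSMB8, PSMB9 and PSMB10), 20 cap genes (PSMC and PSMD) and 4 activator genes (PSME). PSMB11, the thymic subunit, fell in none of these classes. The cells were Caki-1-SR, clone 1 of a sunitinib-resistant subline of Caki-1, a human clear cell renal cell carcinoma line from a skin metastasis, and all groups were kept in 1 µM sunitinib. ODC cells received the optimized drug combination ODCREMP, which joins 2 µM of the ruthenium drug Rapta-C with the EGFR inhibitor erlotinib at 1 µM, the diabetes drug metformin at 1 µM and the sesquiterpene lactone parthenolide at 5 µM, and CTRL cells received none of these 4 agents. CTRL is called untreated in one place and sham-treated in another in the sources. Poly(A) RNA was sequenced after 24 h (3 CTRL and 3 ODC libraries) and after 2 h (2 CTRL and 3 ODC libraries), and the ODC against CTRL comparison at each time asked how transcript levels differed under the combination.

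The proteasome degrades proteins tagged with ubiquitin. Its core is a barrel of stacked rings, with PSMA genes encoding the outer rings that form the gate and PSMB genes encoding the inner rings that hold the cutting sites. Interferon replaces the cutting subunits PSMB5, PSMB6 and PSMB7 with PSMB8, PSMB9 and PSMB10, which favours peptides for antigen presentation. The PSMC ATPases of the cap unfold the substrate, the PSMD subunits bind it and remove its ubiquitin, and the PSME proteins are alternative lids that act without ubiquitin. When proteasome activity is blocked, the factor encoded by NFE2L1 is known to raise many subunit genes together.

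Total counts ranged from 17785229 to 20882856 per library at 24 h and from 25782895 to 31118349 at 2 h, and the subunit genes took 0.774 to 0.953% of them at 24 h and 0.819 to 0.935% at 2 h. Time coincided with the month in the library titles and with the count table, so these cannot be told apart, and levels at 24 h and 2 h are given side by side only. Of 11 renal markers PAX8, VIM and the keratins were measured well above the floor of 3 counts, while CA9, the carbonic anhydrase typical of this carcinoma, was at or under it in every group and PAX2 in 3 of 4 groups. At 24 h the renal markers LHX1, KRT18, KRT8 and VIM were lower in ODC without overlap, at an unadjusted p under 0.05 in edgeR's test and with log2 fold changes of -1.46, -0.71, -0.62 and -0.27 (lowest adjusted p 0.0923). Over all genes tested at 24 h, 5.04% were lower at that p and 8.52% were lower without overlap. The sum of the renal list was 6379 to 7005 CPM in CTRL and 5262 to 6220 CPM in ODC, and its part in the results at 24 h was not tested. CTRL_2h replicate 1 stood apart: it held 37.5 CPM (the count per 1000000 counts of the library, its total scaled by the TMM factor) of the collagen gene COL1A2, against 0 to 0.36 in the other 10 libraries, and its summed fibroblast markers reached 327 CPM against 137 in the other CTRL library at 2 h. Results at 2 h are therefore also given without it. Of 10 leukocyte markers, PTPRC, CD53, CD3E, SPI1 and HLA-DRA were at or under the floor in both groups at 24 h, and CD74, which epithelial cells can express, made up most of that list's sum of 52.2 to 71.6 CPM in CTRL and 61.5 to 98.1 CPM in ODC at 24 h. Of the others, ITGAM (0.096 to 0.44 CPM in CTRL and 0.62 to 1.03 in ODC at 24 h) and LCP1 (0.33 to 0.58 and 0.44 to 1.44) were higher in ODC at an unadjusted p under 0.05 in edgeR's test, LCP1 with overlap. Over all genes tested at 24 h, 7.2% were higher at that p. CD68 measured 5.62 to 5.86 CPM in CTRL and 6.91 to 7.73 CPM in ODC (unadjusted p = 0.0540 in edgeR). At 2 h the list's sum was 85.3 to 98.8 CPM in CTRL and 90.8 to 125 CPM in ODC. The part of this list in the results was not tested.

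No proteasome subunit gene passed the test at either time. At 24 h, 0 of 41 members tested had an adjusted p under 0.05 in edgeR's quasi-likelihood test, where 0.189% of all 12689 genes did, and edgeR's likelihood ratio test and DESeq2 called 0 members as well. PSMA8, a testis form of an outer ring subunit, and PSMB11 had 0 counts in all 11 libraries, which allows up to 0.166 CPM per library at 24 h and 0.116 at 2 h, and were not tested. At an unadjusted p under 0.05 the members counted 0 higher and 0 lower, against 7.2% and 5.04% of all genes. None also reached a fold of 2 (2.35% of all genes). None had all 3 ODC libraries above all 3 CTRL libraries (9.42% of all genes), and none had all 3 below (8.52%). The fitted log2 fold changes of the 41 members ran from -0.24 to 0.33 with a median of 0.01, and 40 of the 41 (97.6%) lay within 0.25 of 0, where 70.5% of all genes did. The 95% interval lay inside a 2-fold difference in both directions for 40 members, PSMB9 being the exception, and for 83.0% of all genes. The median standard error (SE) was 0.11 for the members and 0.15 over all genes, and these shares were not matched for expression level. In such bulk samples, fewer cells of one kind and less RNA per cell cannot be told apart.

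**Figure D1:**
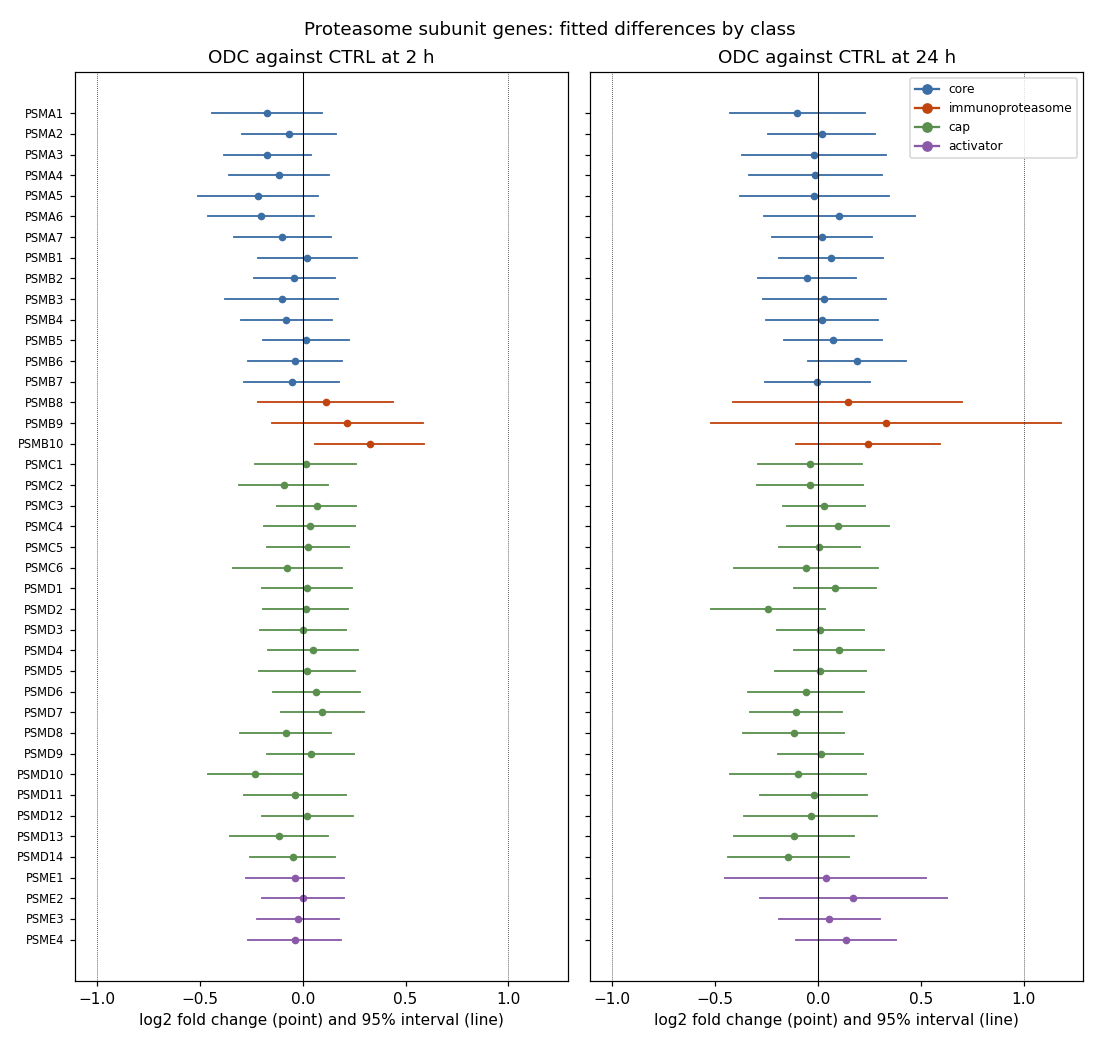
Fitted log2 fold change of ODC against CTRL at 2 h (left) and 24 h (right) for the 41 tested members, 1 row per gene and colour by class, with the 95% interval as a line and dotted lines at a 2-fold difference. At 24 h every interval crosses 0 and only that of PSMB9 passes a dotted line, and at 2 h only the intervals of PSMB10 and PSMD10 leave out 0.

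The 14 tested core genes had 8 positive and 6 negative log2 fold changes at 24 h with a median of 0.02, against a median of 0.00089 over all genes tested, and a range of -0.10 to 0.19. PSMB6, the caspase-like cutting subunit, measured 142, 132 and 128 CPM in CTRL and 169, 147 and 140 CPM in ODC. The lowest ODC library lay just under the highest CTRL library, and the log2 fold change was 0.19 (SE 0.10, edgeR adjusted p = 0.526). Each ODC library was above the CTRL library with the adjacent library number, though no source states that these numbers mark pairs. Such an order in all 3 pairs was seen for 7 members that were higher (17.1%, against 23.5% of all genes) and 6 that were lower (14.6% against 22.9%), and was looked at after the values were seen. With the numbers as a replicate block, PSMB6 and PSMD2 had an unadjusted p under 0.05 (4.88% of members against 23.6% of all genes) and 0 members passed in edgeR's test, with a lowest adjusted p of 0.147. PSMB5, the chymotrypsin-like subunit, measured 185, 159 and 167 CPM in CTRL against 196, 165 and 176 CPM in ODC. PSMB7, the trypsin-like subunit, measured 163, 134 and 141 CPM against 155, 133 and 149 CPM. For both genes the groups overlapped along most of their range, with log2 fold changes of 0.07 (95% interval -0.17 to 0.31) and -0.0040 (-0.26 to 0.25). PSMA1, an outer ring subunit, measured 338, 269 and 281 CPM in CTRL and 322, 234 and 272 CPM in ODC, again with overlap, and its log2 fold change was -0.10 (-0.43 to 0.23).

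In the cap, 8 genes had positive and 12 negative log2 fold changes at 24 h, with a median of -0.04 and a range of -0.24 to 0.10. PSMD2, the large scaffold subunit that docks ubiquitin receptors and, in CTRL at 24 h, the highest member per kilobase (kb) of its length, had the smallest p of all members. It measured 1292, 1156 and 1184 CPM in CTRL and 946, 932 and 1191 CPM in ODC. ODC replicates 1 and 2 were below every CTRL library and replicate 3 sat among them, and the log2 fold change was -0.24 (SE 0.12, 95% interval -0.52 to 0.03, edgeR adjusted p = 0.468). PSMD14, the enzyme that cuts ubiquitin chains off the substrate, measured 195, 159 and 178 CPM in CTRL and 178, 137 and 166 CPM in ODC. PSMD8, a lid subunit, measured 326, 280 and 282 CPM against 300.4, 260 and 257 CPM. Both groups overlapped for each gene, and the log2 fold changes were -0.14 (-0.44 to 0.15) and -0.12 (-0.36 to 0.13). The 6 PSMC ATPases had log2 fold changes between -0.06 and 0.10, with 3 positive and 3 negative.

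The immunoproteasome genes all had positive log2 fold changes at 24 h, with a median of 0.24, but their ODC libraries were far apart. PSMB9 measured 11.9, 10.6 and 8.96 CPM in CTRL and 14.8, 18.9 and 5.91 CPM in ODC. PSMB8 measured 38.1, 34.9 and 27.6 CPM in CTRL and 43.8, 43.9 and 23.7 CPM in ODC, and PSMB10 measured 57.1, 48.6 and 48.6 CPM against 66.0, 68.8 and 47.7 CPM. For all 3 genes ODC replicates 1 and 2 were above every CTRL library and ODC replicate 3 was beneath all 3 of them. PSMB9 had a log2 fold change of 0.33 (SE 0.37, 95% interval -0.52 to 1.18, edgeR adjusted p = 0.789), PSMB8 one of 0.14 (-0.41 to 0.70) and PSMB10 one of 0.24 (-0.11 to 0.59). The median SD of log2 CPM among the 3 ODC libraries was 0.51 for this class, against 0.21 in CTRL, and over all genes tested the same medians were 0.19 and 0.16.

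The activators PSME1 and PSME2, whose products form one lid together and which are also known interferon targets, had ODC replicate 3 apart in the same way. PSME1 measured 113, 99.2 and 87.1 CPM in CTRL and 115, 122 and 68.8 CPM in ODC, and PSME2 measured 97.3, 74.9 and 81.7 CPM against 115, 103 and 67.8 CPM. In both genes ODC replicates 1 and 2 were above every CTRL library and ODC replicate 3 below every one. Their log2 fold changes were 0.04 (-0.45 to 0.52) and 0.17 (-0.28 to 0.62). PSME3, the nuclear lid, measured 255, 206 and 245 CPM in CTRL and 253, 230.1 and 250.3 CPM in ODC, and PSME4, a large single-chain lid, measured 126, 119 and 142 CPM against 139, 133 and 154 CPM. In these 2 activators ODC replicate 3 was not the lowest library, and their log2 fold changes were 0.05 (-0.19 to 0.30) and 0.14 (-0.11 to 0.38).

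**Figure D2:**
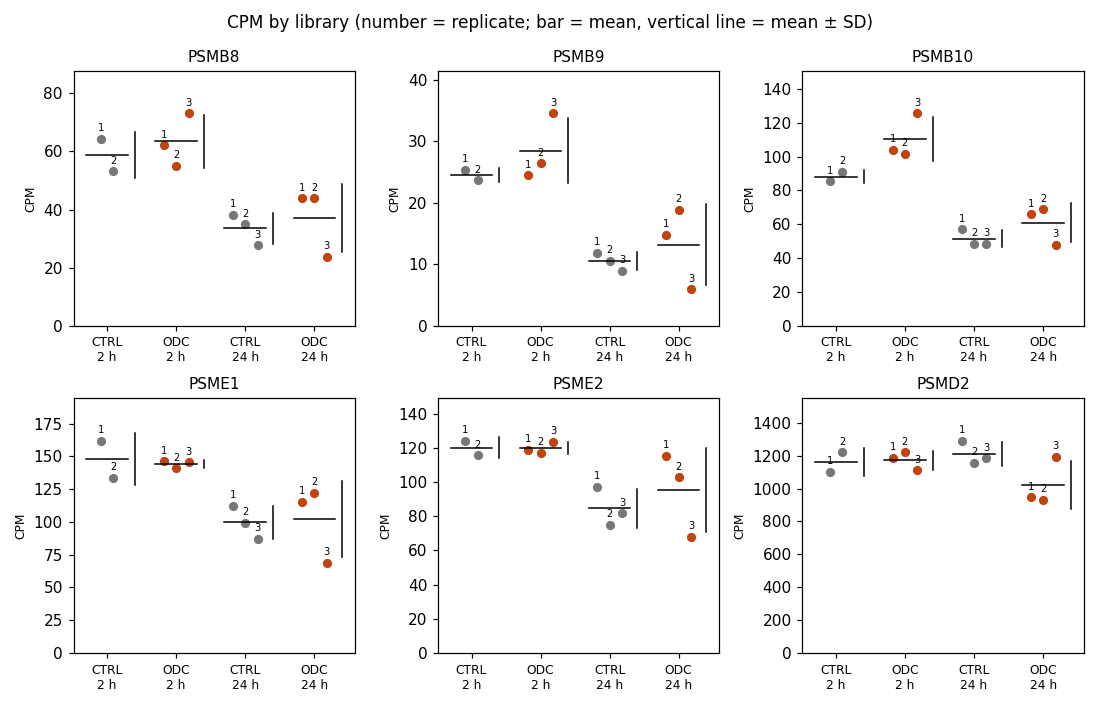
CPM of the 3 immunoproteasome genes, PSME1, PSME2 and PSMD2 in each library by group, with the replicate number beside each point, the group mean as a bar and its SD as a vertical line (2 or 3 libraries). In ODC at 24 h replicate 3 lies apart from replicates 1 and 2 in all 6 panels, lower for the first 5 genes and higher for PSMD2.

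Leaving out ODC_24h replicate 3 changed the values of these genes. Without it PSMB8, PSMB9, PSMB10 and PSME2 were higher and PSMD2 lower at an unadjusted p under 0.05, with a lowest adjusted p of 0.145 in edgeR's test, and 0 members passed. These 5 were 12.2% of the members, against 15.6% of all 12836 genes under that p in the same fit. The log2 fold change of PSMB9 was then 0.68, that of PSMB8 0.38, that of PSMB10 0.39, that of PSME2 0.36 and that of PSME1 0.25. Without ODC_24h replicate 2 instead, PSMB9 stood at -0.03, PSMB8 at -0.0014 and PSME1 at -0.12, so the sign for these 3 genes rested on single libraries. Being highest in ODC replicate 2 and lowest in ODC replicate 3 of the 6 libraries was found for 4 of the 41 members (9.76%), PSMB8, PSMB9, PSMB10 and PSME1, against 5.49% of all genes tested, and was looked at after the values were seen. CD74, the marker with the most counts in the leukocyte list, followed the same order in ODC, with 62.4, 88.7 and 51.0 CPM, against 45.5, 48.6 and 64.3 CPM in CTRL. Its part in the result was not tested.

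At 2 h, 0 of 41 members passed either, nor did any gene (0% of 13332) in edgeR's quasi-likelihood test, while the likelihood ratio test and DESeq2 also called 0 members. At an unadjusted p under 0.05, 1 member was higher and 1 lower, or 2.44% each, against 1.47% and 0.87% of all genes, and none also reached a fold of 2 (0.308% of all genes). The ODC libraries did not overlap with CTRL for 3 members that were higher (7.32%), namely PSMB10, PSMC3 and PSMD7, and for 2 that were lower (4.88%), namely PSMD10 and PSMA3. The shares over all genes were 7.91% and 7.39%. Log2 fold changes ran from -0.23 to 0.33 with a median of -0.04, against -0.01 for all genes, and every member's 95% interval lay inside a 2-fold difference, as did that of 85.1% of all genes. The median SE was 0.099 for the members and 0.14 over all genes, again without matching for expression level. Without CTRL_2h replicate 1, 0 members had an unadjusted p under 0.05 in edgeR's test, and the median log2 fold change was -0.050 for the core, 0.27 for the immunoproteasome, -0.028 for the cap and -0.0082 for the activators.

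PSMB10, the trypsin-like subunit of the immunoproteasome, was the higher member. It measured 85.3 and 90.8 CPM in CTRL and 104, 102 and 126 CPM in ODC. The groups did not overlap, and the log2 fold change was 0.33 (SE 0.12, 95% interval 0.06 to 0.59, unadjusted p = 0.0219 and adjusted p = 1.00 in edgeR). PSMB9 measured 25.4 and 23.7 CPM in CTRL and 24.5, 26.4 and 34.6 CPM in ODC, and PSMB8 measured 64.3 and 53.2 CPM against 62.1, 55.1 and 73.2 CPM. Both overlapped, with log2 fold changes of 0.22 (-0.15 to 0.58) and 0.11 (-0.22 to 0.44). All 3 genes were highest in ODC_2h replicate 3, as were 21.2% of all genes. Without that library their median log2 fold change was 0.06 in place of 0.22, and PSMB10 stood at 0.23. Without CTRL_2h replicate 1 PSMB10 stood at 0.28 and PSMB8 at 0.26.

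The core genes lay on the other side at 2 h: 12 of 14 had negative log2 fold changes, with a median of -0.09, and among them all 7 tested PSMA genes, with a median of -0.17 and a range of -0.22 to -0.07. PSMA5 measured 274 and 234 CPM in CTRL and 238, 231 and 187 CPM in ODC. PSMA6 measured 184 and 157 CPM against 160, 152 and 133 CPM, and PSMA3 measured 166 and 159 CPM against 149.5, 149.9 and 134 CPM. Only PSMA3 was free of overlap among these outer ring subunits, and the log2 fold changes were -0.22 (-0.51 to 0.07), -0.20 (-0.46 to 0.06) and -0.17 (-0.38 to 0.04). All 14 core genes were lowest in ODC_2h replicate 3, where 23.0% of all genes were lowest. This was noticed after the values were seen. Without that library the core median was -0.02, and without CTRL_2h replicate 1 it was -0.05, with PSMA5 at -0.10 and PSMA6 at -0.09. The cutting subunits PSMB5, PSMB6 and PSMB7 stood nearer 0. In CTRL and then ODC, PSMB5 measured 155 and 165 against 169, 165 and 152 CPM. PSMB6 measured 123 and 133 against 133, 127 and 114 CPM, and PSMB7 measured 134 and 138 against 142, 131 and 119 CPM. All 3 overlapped, with log2 fold changes of 0.02, -0.04 and -0.05.

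Cap genes at 2 h had 13 positive and 7 negative log2 fold changes with a median of 0.02. PSMD10, a chaperone of cap assembly also known as gankyrin, was the lower member, with 73.8 and 66.7 CPM in CTRL and 63.8, 57.6 and 58.0 CPM in ODC. No ODC library reached a CTRL library, and the log2 fold change was -0.23 (SE 0.10, 95% interval -0.46 to -0.0044, unadjusted p = 0.0466 and adjusted p = 1.00 in edgeR). Without CTRL_2h replicate 1 it was -0.16. PSMD7, a lid subunit and the partner of PSMD14, measured 234 and 242 CPM in CTRL and 271, 251 and 242 CPM in ODC, and the ATPase PSMC3 measured 278 and 288 CPM against 312, 289 and 290 CPM. Their lowest ODC libraries exceeded CTRL by less than 1 CPM, and the log2 fold changes were 0.10 (-0.11 to 0.30) and 0.07 (-0.12 to 0.26). PSMD13, another lid subunit, measured 481 and 431 CPM against 457, 425 and 382 CPM, with overlap and a log2 fold change of -0.11 (-0.35 to 0.12).

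The activators hardly differed at 2 h, with all 4 log2 fold changes between -0.04 and -0.0009. PSME1 measured 162 and 134 CPM in CTRL and 146, 141 and 145 CPM in ODC. PSME2 measured 124 and 116 CPM against 119, 117 and 124 CPM. In both genes the ODC libraries lay within or at the edge of the span of the CTRL pair. The 95% intervals of PSME1, PSME2, PSME3 and PSME4 ran from -0.27 to 0.20, from -0.20 to 0.20, from -0.22 to 0.18 and from -0.27 to 0.19. PSME3 measured 211 and 225 CPM against 211, 226 and 207 CPM, and PSME4 measured 132 and 152 CPM against 132, 145 and 137 CPM, again with overlap.

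**Figure D3:**
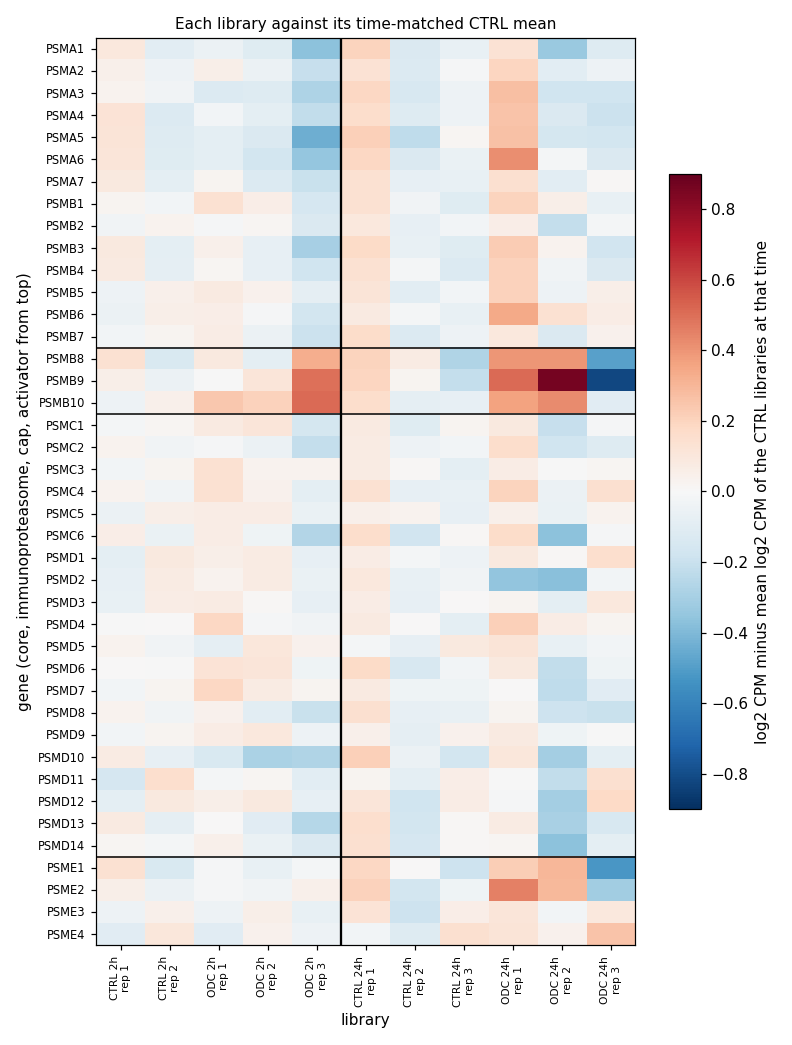
Log2 CPM of each tested member (rows, by class) in each library (columns) minus the mean log2 CPM of the CTRL libraries at the same time, from blue (lower) to red (higher). ODC_2h replicate 3 is blue through the core and red in the 3 immunoproteasome genes, where it reaches 0.51, and ODC_24h replicate 3 is blue in the immunoproteasome genes, down to -0.82, where replicates 1 and 2 are red.

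The difference between the 24 h and 2 h effects was tested in one fit of all libraries. Time coincided with month and count table, so an effect that varied with time and an effect that varied with these cannot be told apart. This test called 0 of 41 members, where 0.015% of all 13333 genes were called. The likelihood ratio test and DESeq2 called 0 members too. At an unadjusted p under 0.05, 0 members were higher and 0 lower, against 3.17% and 2.77% of all genes. PSMD7 and PSMD2 had the smallest p, with differences in log2 fold change (24 h minus 2 h) of -0.22 (-0.51 to 0.07, edgeR adjusted p = 0.956) and -0.27 (-0.63 to 0.09, edgeR adjusted p = 0.956). PSMD7 measured 212, 195 and 195 CPM in CTRL and 201, 171 and 187 CPM in ODC at 24 h, with overlap, and PSMD2 measured 1100 and 1220 CPM in CTRL and 1186, 1219 and 1110 CPM in ODC at 2 h. PSMD6, a lid subunit, had a difference of -0.14 (-0.50 to 0.21). It measured 112, 90.2 and 98.4 CPM in CTRL and 106, 85.5 and 97.2 CPM in ODC at 24 h, and 91.0 and 90.9 against 99.1, 98.2 and 88.3 CPM at 2 h. Overlap was present at both times.

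On the positive side of that difference stood PSMA6 (0.29, -0.18 to 0.76), PSMB6 (0.21, -0.11 to 0.53) and PSMA5 (0.18, -0.31 to 0.67), and 13 of the 14 core genes were positive. Over all genes tested, 6726 of 13333 were positive. All 14 core genes were lowest in ODC_2h replicate 3 at 2 h, as were 23.0% of all genes. Without that library the differences of PSMA6, PSMB6 and PSMA5 were 0.21, 0.14 and 0.08. At 24 h PSMA6 measured 182, 146 and 153 CPM in CTRL and 213, 158 and 146 CPM in ODC, and PSMA5 measured 230.2, 169.8 and 200.7 CPM against 238, 178 and 177 CPM. Overlap was wide for both. The immunoproteasome genes had differences of 0.01 (PSMB8, -0.67 to 0.70), 0.09 (PSMB9, -0.91 to 1.09) and -0.10 (PSMB10, -0.55 to 0.34).

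Levels between genes were compared per kb of gene length. The length was the union of annotated exons, and since this union counts retained introns, the length of the MANE Select transcript (the agreed reference transcript of a gene) was added after the data were seen. In CTRL at 24 h and by the MANE Select length, PSMD2 was highest with 416 ± 24.6 CPM per kb (SD, n = 3), followed by the core genes PSMA7 with 381 ± 32.7 and PSMB4 with 323 ± 29.4. PSMB9 was lowest of the expressed members with 10.3 ± 1.46. The core ran from 52.5 to 381 CPM per kb with a median of 163, the cap from 19.6 to 416 with a median of 92.2, and the activators from 17.8 to 107 with a median of 88.6. By the exon union PSMD2, PSMA7 and PSMB4 kept the first 3 places with 244, 209 and 140 CPM per kb, and the immunoproteasome genes measured 31.6 (PSMB10), 9.65 (PSMB8) and 3.14 (PSMB9).

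**Figure D4:**
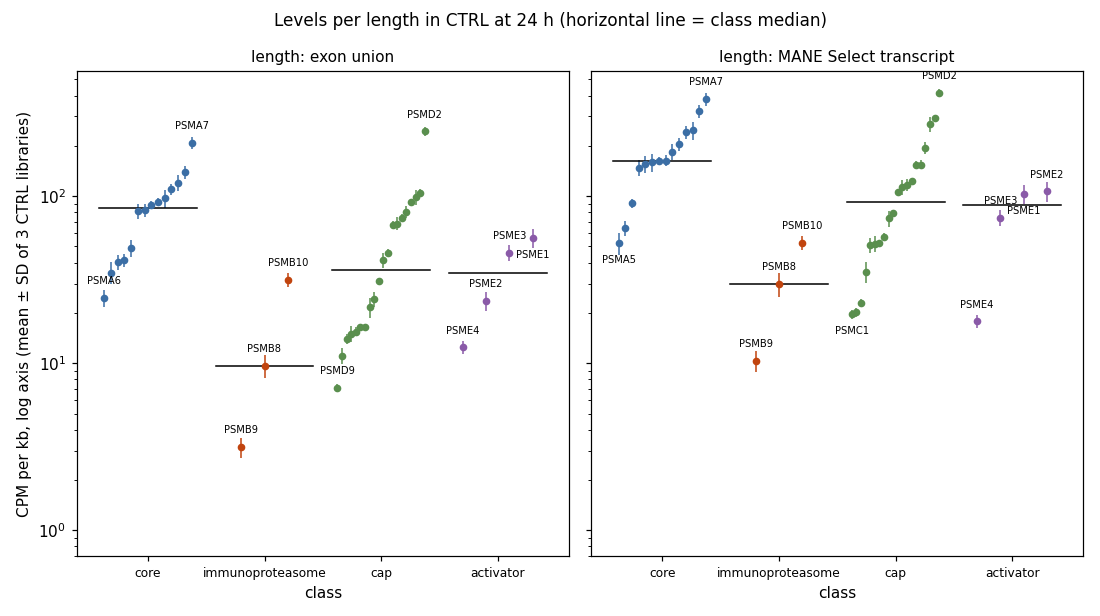
CPM per kb on a log axis in CTRL at 24 h for each expressed member by class (points are means of 3 libraries, vertical lines are SD, horizontal lines are class medians), with the exon union length on the left and the MANE Select length on the right. The immunoproteasome median is the lowest of the 4 classes on both scales, at 9.65 and 29.9 CPM per kb, and PSMD2 is the highest gene on both.

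Each immunoproteasome gene was set against the constitutive subunit whose place it takes, as a ratio of CPM per kb by the MANE Select length. At 24 h PSMB10 was at 35.5 ± 0.992% of PSMB7 in CTRL (SD, n = 3) and at 42.4 ± 10.0% in ODC. PSMB8 was at 18.3 ± 2.63% of PSMB5 in CTRL and at 19.3 ± 6.24% in ODC, and PSMB9 at 6.33 ± 0.586% of PSMB6 and at 6.97 ± 3.50%. The single ODC libraries were at 42.9, 52.2 and 32.2% for PSMB10, at 20.8, 24.7 and 12.5% for PSMB8 and at 7.10, 10.4 and 3.41% for PSMB9. Every ratio was thus lowest in ODC replicate 3, below all 3 CTRL libraries. At 2 h the same ratios were 65.2 ± 1.34%, 34.1 ± 6.05% and 15.6 ± 1.61% in CTRL (SD, n = 2) and 86.0 ± 17.8%, 36.6 ± 7.21% and 18.8 ± 5.09% in ODC (SD, n = 3). Only PSMB10 to PSMB7 was free of overlap at 2 h, with 64.3 and 66.2% in CTRL and 73.5, 78.1 and 106% in ODC. These ratios are a description and were not tested. With the exon union length the CTRL ratios at 24 h were 38.8, 8.77 and 3.39%. The size of all 3 ratios thus depends on the length used, most for PSMB8 to PSMB5 and PSMB9 to PSMB6.

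**Figure D5:**
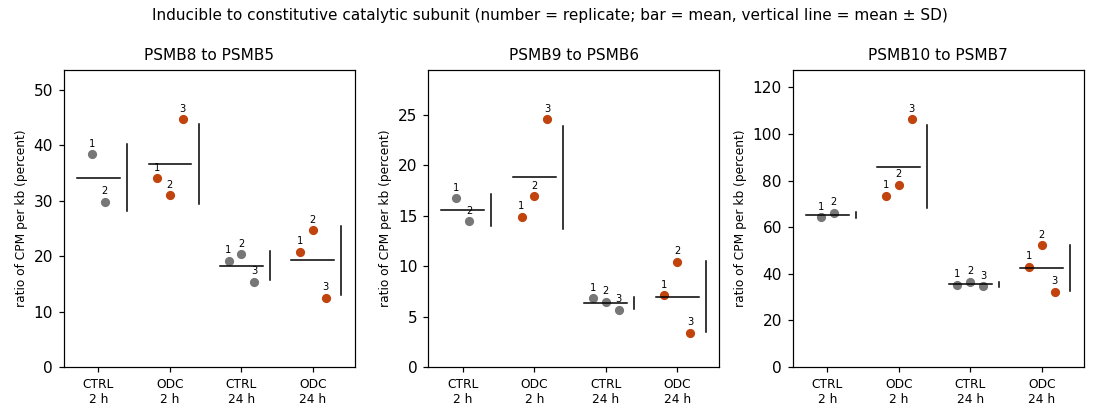
Ratio in percent of CPM per kb (MANE Select length) of each immunoproteasome subunit to the constitutive subunit it replaces, in each library by group, with the replicate number beside each point, the mean as a bar and the SD as a vertical line. In ODC replicate 3 lies highest at 2 h, up to 106% for PSMB10 to PSMB7, and lowest at 24 h, down to 3.41% for PSMB9 to PSMB6.

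Promoter sequence is shown for PSMB9 and PSMB10, which had the largest positive log2 fold changes at 24 h and 2 h, and for PSMA5, which had the most negative one of the core at 2 h. Each is the 250 bases before the RefSeq start (GRCh38.p14, identical to hg38 here). The windows are chr6:32853942-32854191 on the plus strand for PSMB9, chr16:67936851-67937100 on the minus strand for PSMB10 and chr1:109426449-109426698 on the minus strand for PSMA5. Capitals mark matches, on either strand, to the antioxidant response element core TGACNNNGC (-148 to -140 from the start of PSMB9), the interferon response element core GAAANNGAA (-21 to -13 of PSMB10) or the CCAAT box (PSMB9 and PSMA5).
PSMB9: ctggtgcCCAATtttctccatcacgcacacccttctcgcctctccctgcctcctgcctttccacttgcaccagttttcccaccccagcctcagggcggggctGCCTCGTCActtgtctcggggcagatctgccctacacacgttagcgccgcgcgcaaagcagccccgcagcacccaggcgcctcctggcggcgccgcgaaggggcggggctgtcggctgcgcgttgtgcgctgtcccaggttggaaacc
PSMB10: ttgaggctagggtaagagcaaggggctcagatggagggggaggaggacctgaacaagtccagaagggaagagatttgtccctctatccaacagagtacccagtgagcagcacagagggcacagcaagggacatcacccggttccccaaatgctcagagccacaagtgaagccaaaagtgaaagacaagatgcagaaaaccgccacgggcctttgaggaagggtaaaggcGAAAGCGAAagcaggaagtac
PSMA5: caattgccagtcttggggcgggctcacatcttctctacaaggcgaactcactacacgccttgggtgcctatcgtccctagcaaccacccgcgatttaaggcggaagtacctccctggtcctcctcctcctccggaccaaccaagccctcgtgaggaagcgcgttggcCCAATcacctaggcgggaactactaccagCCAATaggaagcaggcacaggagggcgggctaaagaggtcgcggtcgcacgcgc

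Of the 43 members 38 had promoter entries, with 45 windows, and PSMA7, PSMB1, PSMB6, PSMB7 and PSMD4 had none. TGACNNNGC was present in 24.4% of the member windows and in 10.9% of all 35116 windows of that length. CCAAT was present in 40.0% against 32.0%, the interferon gamma activated sequence TTCNNNGAA in 15.6% against 6.57%, GAAANNGAA in 8.89% against 6.88% and GGGNNTTCC, a part of the NF-kB element, in 11.1% against 5.78%. Of the immunoproteasome genes PSMB8 held TTCNNNGAA and GGGNNTTCC, PSMB9 held TGACNNNGC and PSMB10 held GAAANNGAA. Of the activators PSME1, PSME2 and PSME4 held TGACNNNGC, and PSME2 also GAAANNGAA. Both strands were searched, motifs could overlap, and a match is a description of letters and not a binding site.

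PSMB8 and PSMB9 lie in the class II region of the major histocompatibility complex, beside TAP1 and TAP2, which encode the peptide transporter. In hg38 with GENCODE 44, TAP2 spans chr6:32821833-32838739, PSMB8 chr6:32840717-32844679, PSMB9 chr6:32844136-32859851 and TAP1 chr6:32845209-32853816, all but PSMB9 on the minus strand. The RefSeq starts of TAP1 and PSMB9 are 488 bases apart and point away from each other, so the PSMB9 window above lies between them. At 24 h TAP1 measured 22.3, 26.0 and 27.8 CPM in CTRL and 51.5, 58.0 and 41.5 CPM in ODC. All ODC libraries were above all CTRL libraries, and the log2 fold change was 0.99 (SE 0.15, 95% interval 0.64 to 1.34, unadjusted p = 0.00018 and adjusted p = 0.0655 in edgeR). PSMB9 was at 53.4, 40.8 and 32.3% of the TAP1 CPM in CTRL and at 28.8, 32.6 and 14.2% in ODC. PSMB8 and PSMB9 share exon sequence on opposite strands and PSMB9 also with PSMB8-AS1 on its own strand, and the strand setting of the counting is not given in the sources used here, so their counts are less certain than those of PSMB10, whose exons overlap no other gene in the tables.

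Genes around the proteasome were read in the same fits as 6 lists, and 0 genes of any list passed at an adjusted p under 0.05 at 24 h, at 2 h or in the difference. Among 11 interferon inputs and neighbours, 3 were higher and 0 lower at an unadjusted p under 0.05 at 24 h, against 7.2% and 5.04% of all genes. They were TAP1, TAPBP, the bridge between the transporter and MHC class I, and IFNGR1, an interferon gamma receptor chain. The list's median log2 fold change was 0.22 at 24 h and 0.03 at 2 h, with NLRC5 at 0.18 and TAPBP at 0.19 at 2 h.

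Of 10 genes of subunit gene transcription, 1 was higher and 0 lower at 24 h at an unadjusted p under 0.05, against 7.2% and 5.04% of all genes. This was MAFK, a DNA-binding partner of the NFE2 factors, with 39.2, 52.9 and 52.2 CPM in CTRL and 53.2, 78.4 and 85.6 CPM in ODC and a log2 fold change of 0.59 (0.14 to 1.04, edgeR adjusted p = 0.270). NFE2L1 stood at 0.13 (-0.08 to 0.34) at 24 h and 0.03 (-0.17 to 0.24) at 2 h. NFE2L2, the factor of the oxidative stress response, stood at -0.03 (-0.23 to 0.18) and 0.27 (-0.07 to 0.60). MAFG, another small MAF partner, stood at 0.35 at 24 h, and the list's median was 0.10 at 24 h and 0.05 at 2 h. Among 9 tested shuttle factors SQSTM1, which carries ubiquitin-tagged cargo to autophagy, was the 1 gene that was higher at an unadjusted p under 0.05 at 24 h, against the same 7.2% of all genes. It measured 535, 629 and 609 CPM in CTRL and 878, 885 and 1350 CPM in ODC, without overlap, and its log2 fold change was 0.81 (0.40 to 1.22, edgeR adjusted p = 0.128). UBQLN4, also a shuttle, stood at 0.19 at 24 h, and at 2 h TXNL1, a thioredoxin bound to the cap, and UBQLN4 stood at -0.13 and -0.10. In the test of 24 h against 2 h, TAP1 (0.68, adjusted p = 0.713 in edgeR) and SQSTM1 (0.71, adjusted p = 0.762 in edgeR) were the only genes of the 6 lists at an unadjusted p under 0.05, where 3.17% of all genes were higher.

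Of 6 genes of ubiquitin supply and activation, 1 was higher and 0 lower at an unadjusted p under 0.05 at 24 h in edgeR's test, again against 7.2% and 5.04% of all genes, and UBA6, an activating enzyme, stood at -0.21. At 2 h RPS27A and UBB, further ubiquitin genes, stood at -0.19 and -0.13. The 8 listed assembly chaperones and inhibitors, a list that leaves out the cap member PSMD10, had 0 genes under that p at either time. The lowest p among them belonged to PSMG1, a chaperone of the outer ring, with -0.26 at 24 h (-0.55 to 0.03, beside its partner PSMG2 at -0.20), and to POMP, which matures the core, with -0.14 at 2 h (-0.40 to 0.12, beside PSMG2 at -0.11). The 5 subunits and cofactors with other names than PSM also had 0, with SHFM1 at 0.14 and UCHL5 at -0.25 at 24 h and ADRM1, a ubiquitin receptor, at 0.18 at 2 h. The medians of the shuttle, ubiquitin, assembly and cofactor lists lay between -0.07 and 0.01 at both times.

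Some members share sequence with other loci. Named pseudogenes exist for 16 members, 42 in all, with 13 for PSMC1, 6 for PSME2 and 3 for PSMD10, and counts of these genes may hold or lack reads of the copies. Exons overlapped another listed gene on the same strand for 3 members and on the opposite strand for 11.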

How the data were processed

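Poly(A)-selected RNA of 11 libraries was sequenced from a stranded mRNA kit. Per the labels, reads were aligned to hg38 with STAR 2.7.0f and counted per gene with HTSeq 0.9.1. The deposited values are raw counts per gene symbol in 2 tables, 1 per time. The rule for the members read gene symbols and no measured value, but it and the lists of genes were chosen with earlier results of these data known. Groups came from the treatment labels, and nothing there says that libraries of a group came from separate cultures, so p-values measure the spread between these libraries only. Replicates of a group differed by more than sampling noise (chi-square per degree of freedom 18.7 to 58.0).

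Genes were kept by filterByExpr (at least 10 counts at the median depth, 15 in all), scaled by TMM (factors 0.965 to 1.02) and tested with edgeR 4.0.16 (glmQLFit and glmQLFTest, 2-sided) on ODC against CTRL, separately at 24 h and 2 h, and on the difference in 1 fit. P-values were adjusted by Benjamini-Hochberg over all genes tested. The 95% intervals used the fit's degrees of freedom. CPM is the count per 1000000 of the library total times its TMM factor, and a count of 0 allows up to 3 counts, for counting error only. Values were given for the cutting subunits, the activators and the 3 smallest p per class and comparison, and for NFE2L1, NFE2L2 and the 2 smallest p per list. Exons came from GENCODE 44, promoter windows from RefSeq. DESeq2 1.42.0, the likelihood ratio test, other filters and scalings, a joint fit, a replicate block and leaving out each library were tried. The scripts were tested on simulated data. Protein sequences were not used here. Values of a few listed genes are left out of the text.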

Additional observations from a re-analysis of the deposited data

How the results depend on the processing

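In every alternative run, 0 members passed at an adjusted p under 0.05, at 24 h, at 2 h and in the difference between them, while the number of all genes called at 24 h ran from 17 to 401 over other filters, scalings and tests of these 6 libraries (main 24), was 186 with the joint fit of all 11 libraries and 686 with adjacent library numbers as a replicate block. At 2 h (main 0 genes) the likelihood ratio test called 5, DESeq2 1 and the quasi-likelihood test without CTRL_2h replicate 2 called 42, and in the difference (main 2) the likelihood ratio test called 37 and DESeq2 36. That block is not a stated pairing: at 24 h each CTRL library was numbered next to 1 ODC library, and within these pairs the correlations of the libraries' departures from their group means were 0.19, 0.58 and 0.44. Members at an unadjusted p under 0.05 at 24 h (main 0) were 2 with the replicate block (PSMB6 higher and PSMD2 lower, lowest adjusted p 0.147; 4.88% against 23.6% of all genes), 1 with the joint fit (PSMD2; 2.44% against 15.1%) and 0 to 5 when 1 library was left out (at most 12.2%, against 15.6% in that fit). At 2 h (main 2) they numbered 1 without a filter on low counts, 1 with upper quartile scaling, 1 with library size only, 1 with the likelihood ratio test, 0 with the joint fit and 0 to 3 when 1 library was left out (at most 7.32%, against 8.72% in that fit). The cause of these changes was not tested.

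Signs turned for log2 fold changes whose 95% interval held 0. With library size only, PSME1 at 24 h was -0.000603 and PSMB8 in the difference -0.00183, and PSME2 at 2 h was 0.0109 without a filter on low counts and 6.44e-05 with the joint fit. When 1 library was left out, the log2 fold changes at 24 h ran from -0.23 to 8.13e-05 for PSMA1, from -0.065 to 0.073 for PSMB7, from -0.0014 to 0.38 for PSMB8, from -0.027 to 0.68 for PSMB9, from -0.12 to 0.25 for PSME1 and from -0.034 to 0.11 for PSME3. At 2 h they ran from -0.028 to 0.076 for PSMB5, from -0.091 to 0.034 for PSMB6, from -0.12 to 0.011 for PSMB7, from -0.0038 to 0.26 for PSMB8, from -0.15 to 0.11 for PSME1, from -0.037 to 0.053 for PSME2, from -0.069 to 0.043 for PSME3 and from -0.14 to 0.085 for PSME4, and the activator median ran from -0.041 to 0.0026. In the difference they ran from -0.20 to 0.039 for PSMB10, from -0.12 to 0.25 for PSMB8, from -0.25 to 0.44 for PSMB9, from -0.0061 to 0.34 for PSME2 and from -0.027 to 0.13 for PSME3. Other class medians also turned when 1 library was left out. At 24 h the core median ran from -0.077 to 0.081 and the cap median from -0.079 to 0.034. The immunoproteasome median at 24 h ran from -0.0014 to 0.39. For the cap at 2 h the median ran from -0.028 to 0.073.

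With 2 or 3 libraries a group, a missed threshold does not show that levels were equal. The MANE Select length raised the ratio of PSMB8 to PSMB5 in CTRL at 24 h from 8.77 to 18.3%, and a gene's length was not adjusted for the isoforms these cells express.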
